A study of Mus musculus with 2 samples.

Results

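Acadvl, Acadl, Acadm, Acads, Hadha, Hadhb, Hadh, Echs1, Ech1 and Eci1, the nuclear genes of the core mitochondrial beta-oxidation enzymes, were examined in mouse gastrocnemius. The set is defined by a list of symbols, and all 10 were found, each under 1 identifier, among the 55536 genes listed in the deposited gene tables. The samples form 1 group of 2 libraries of total RNA from gastrocnemius, a calf muscle of mixed fibre types. The donors were 2-month-old males of the strain B6CASTF1/J, hybrids of B6 and CAST, and the labels name no treatment. The RNA input was 300 ng per library, and ERCC spike-ins were added. The labels number the libraries as biological replicates 1 and 2, each with technical replicate number 1. They are called replicate 1 and replicate 2 here. The tissue samples have separate entries in the labels under a shared donor entry, and separate animals are not stated, so the spread between the libraries may be technical in part. The design has 1 group and so no contrast of conditions. The ratio of replicate 2 over replicate 1 is a description of these libraries without a replicate check.

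Beta-oxidation shortens fatty acids in the mitochondrial matrix by cutting acetyl-CoA from the acyl chain in repeated cycles. Each cycle runs through an acyl-CoA dehydrogenase, an enoyl-CoA hydratase, a hydroxyacyl-CoA dehydrogenase and a thiolase, with different enzymes for long and short chains, and isomerases bring the double bonds of unsaturated fatty acids into the cycle. Slow and other oxidative muscle fibres are rich in mitochondria and rely on this pathway more than fast glycolytic fibres do.

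All 10 enzymes were more abundant in replicate 2 than in replicate 1. Each ratio was at least 1.5-fold on counts scaled between the libraries, a size reached in that direction by 3.65% of the 10054 genes tested, those whose counts summed to 200 or more over the libraries, and in the other direction by 1.71%. The set was picked with results of these data known, so the count describes these libraries and is no independent support. The ratios lay in a narrow band, from 1.58-fold for Acads to 2.09-fold for Ech1, with a median log2 ratio of 0.80 (1.74-fold) against 0.0016 over all genes tested. The SD of the log2 ratio was 0.13 over the 10 enzymes and 0.34 over all genes tested. These SDs are not like for like. Each enzyme had a summed count of at least 3020, whereas the genes tested start at 200, where counting error is larger. In a list of all genes tested ordered by this ratio, the enzymes took places between 100 and 301 of 10054. In bulk tissue, fewer cells of a type and less RNA per cell cannot be told apart.

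Expected counts summed to 42724520 over the genes of replicate 1 and to 42280091 in replicate 2, of which the 10 enzymes held 0.101% and 0.176%. Levels between genes are given in TPM, which corrects for length, and come from the gene tables, called the first tables with the transcript tables of the same layout. A second kind of transcript table, summed to genes, gave its own TPM. The summed TPM of the enzymes was 756 in replicate 1 and 1301 in replicate 2 of the first tables (mean 1029 ± 385, SD, n = 2), and 1218 and 2015 in the second. Counts of the enzymes in the second tables were between 0.956 and 1.09 times those in the first, whereas TPM was between 1.19 and 2.02 times as high. The level thus depends on the kind of table, while the median log2 ratio was 0.80 in both, and no enzyme's log2 ratio differed between them by more than 0.037. When TPM was recomputed with nuclear protein-coding genes alone as the denominator, the enzymes summed to 1847 and 3364 in the first tables and to 1820 and 3319 in the second.

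**Figure D1:**
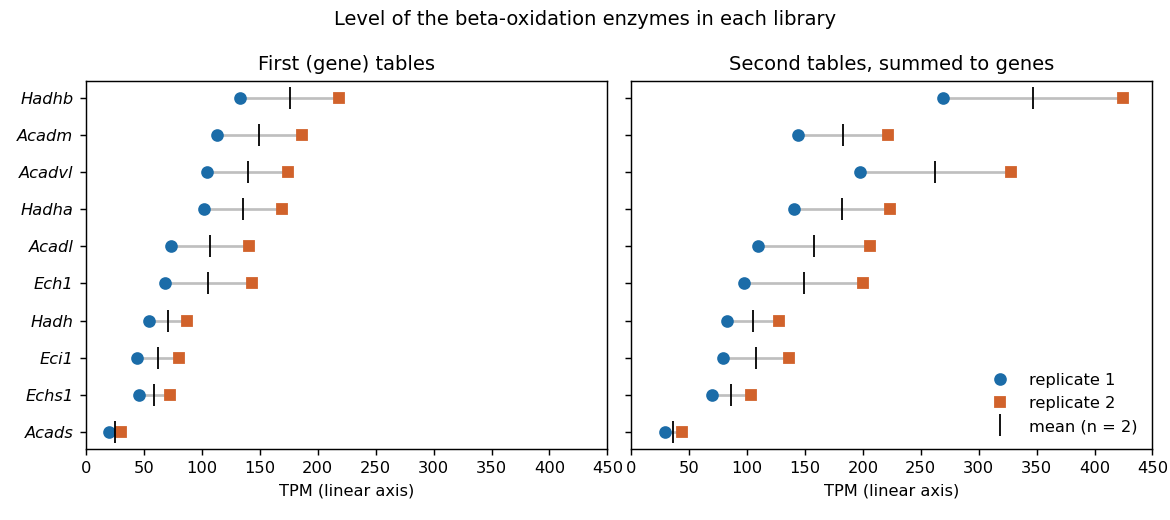
TPM of the 10 enzymes (rows, ordered by mean level in the first tables) in replicate 1 (circles) and replicate 2 (squares), with the mean of both libraries as a bar, in the first tables (left) and the second tables (right). Replicate 2 is the higher library for every enzyme in both kinds of table, and Hadhb is the highest in both, at 133 and 218 TPM on the left and 269 and 425 TPM on the right.

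The acyl-CoA dehydrogenases open each cycle by placing a double bond in the acyl chain, and 4 of them differ in the chain length they prefer. Acadvl encodes the very-long-chain enzyme of the inner mitochondrial membrane (ENSMUSG00000018574.14, chr11:70010183-70015411, minus strand, mm10) and measured 104 TPM in replicate 1 and 174 in replicate 2. The higher value is that of replicate 2, a count of 10942 against 6603, or 1.70-fold after scaling (95% counting interval 1.65 to 1.76). Acadl, for the long-chain enzyme (ENSMUSG00000026003.5, chr1:66830839-66863277, minus strand), was at 72.9 and 140 TPM, with counts of 4551 and 8694. Its ratio of 1.96-fold (1.89 to 2.04) was above that of Acadvl, and the intervals did not overlap. Acadm encodes the medium-chain enzyme (ENSMUSG00000062908.12, chr3:153922357-153944632, minus strand) and was at 113 and 186 TPM, with counts of 5347 and 9465 and a ratio of 1.82-fold (1.76 to 1.88). Acads, for the short-chain enzyme (ENSMUSG00000029545.13, chr5:115110299-115119346, minus strand), was the lowest of the 10 in both libraries, at 19.6 and 30.1 TPM. Its counts were 1190 and 1830, and its ratio of 1.58-fold had an interval, 1.47 to 1.70, that reaches below 1.5.

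Among these dehydrogenases Acadm and Acadvl held the largest shares of summed TPM in the first tables. Acadm held 36.4% in replicate 1 and 35.1% in replicate 2, and Acadvl 33.7% and 32.9%. Acadl held 23.5% and 26.4%, and Acads 6.32% and 5.67%. Which of the 2 leads depended on the table, since in the second tables Acadvl held 41.2% and 41.0% and Acadm 30.0% and 27.8%. Acads was last in both. The place of Acadm above Acadl in the first tables depended on short transcripts. Over transcripts of at least 1000 nt Acadl was at 72.9 and 139 TPM there and Acadm at 72.2 and 130. In the second tables Acadm stayed above over such transcripts, at 113 and 195 TPM against 100 and 182. Within each library Acadm exceeded Acads 5.76-fold and 6.18-fold in TPM of the first tables, and Acadvl exceeded Acadl 1.43-fold and 1.24-fold.

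The later steps on long chains are carried out by the mitochondrial trifunctional protein, a complex of alpha subunits, with hydratase and dehydrogenase activity, and beta subunits, with thiolase activity. Hadha, for the alpha subunit (ENSMUSG00000025745.12, chr5:30118304-30155162, minus strand), measured 102 TPM in replicate 1 and 169 in replicate 2. Its counts of 9048 and 15078 were the highest of the 10, and the ratio was 1.71-fold (1.67 to 1.76). Hadhb, for the beta subunit (ENSMUSG00000059447.13, chr5:30155248-30184593, plus strand), was at 133 and 218 TPM, with counts of 6873 and 11767 and a ratio of 1.76-fold (1.71 to 1.81). The intervals overlap, so the ratios of the subunits were not separated beyond counting error.

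Hadha and Hadhb lie head to head on chromosome 5, transcribed away from each other. The GENCODE genes are 85 bases apart, and their RefSeq starts 273 bases. The sequence between the genes (GRCm38.p6, chr5:30155163-30155247, plus strand, read toward Hadhb) is shown because the outermost GENCODE starts of both subunit genes border it. The RefSeq start of Hadha (30154980) and the start of its transcript Hadha-201 (30154976) lie further inside Hadha. Capitals mark GGGCGG, the core of a GC box, which lies 90 and 25 bases before the RefSeq start of Hadhb.

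Hadha-Hadhb: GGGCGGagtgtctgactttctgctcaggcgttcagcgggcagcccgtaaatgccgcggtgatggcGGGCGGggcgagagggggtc

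The level of Hadha relative to Hadhb was nearly the same in both libraries but depended on which transcripts were counted. The log2 TPM ratio of Hadha over Hadhb was -0.38 in replicate 1 and -0.37 in replicate 2 of the first tables, and -0.93 in both libraries of the second. A transcript of 507 nt, Hadhb-208, annotated as a retained intron in the 3′ part of the gene (chr5:30180232-30184236), enters the level of Hadhb. It held 28.0% and 24.0% of the TPM of Hadhb in the first tables and 53.0% and 50.9% in the second, on 7.60% and 6.25%, and 10.4% and 9.78%, of the gene's reads. Over transcripts of at least 1000 nt, a choice made after seeing these values, the log2 ratio was 0.016 in replicate 1 and -0.056 in replicate 2 of the first tables, and 0.13 and 0.11 in the second. Which subunit RNA is the more abundant is therefore not settled by these tables.

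Most of the RNA of Hadha was assigned to a transcript with no annotated coding sequence. Hadha-201, a processed transcript of 2552 nt, held 73.2% and 73.7% of TPM in the first tables and 74.0% and 78.3% in the second. Hadha-205, the coding transcript of 4017 nt with a coding sequence of 2289 nt, held 19.1% and 19.2%, and 22.2% and 21.1%. All 2552 nt of Hadha-201 are also exonic in Hadha-205, which has a further 157 nt inside the span of Hadha-201, so reads of the shared part can fall to either. For Hadhb the tables disagreed on the leading coding transcript. Hadhb-201 held 42.9% and 51.3% in the first tables and 7.59% and 4.89% in the second, whereas Hadhb-203 held 27.3% and 23.8%, and 27.9% and 31.8%, and Hadhb-202 was at 0% in both libraries of the first tables and at 10.7% and 11.7% in the second. These 3 transcripts carry a coding sequence of the same 1425 nt length, and Hadhb-201 shares 2005 nt with Hadhb-203 and 1998 nt with Hadhb-202. The deposited posterior SD of the count of Hadhb-201, 375 reads on 3800 in replicate 1 and 531 on 7455 in replicate 2, shows how loosely the reads are divided among them.

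Some reads of Hadhb could also fall on a pseudogene. Gm13910, a processed pseudogene (chr2:108948806-108950233, plus strand), shares 1305 of the 31-base words in the transcripts of Hadhb, or 19.5% of them. It was assigned 715 reads in replicate 1 and 1229 in replicate 2 (15.7 and 26.9 TPM), which is 9.42% and 9.46% of the reads of Hadhb and Gm13910 together. Added to Hadhb, these reads left its log2 ratio at 0.82. Gm9108, on chromosome 15, shares 641 words and was assigned 1.02 and 0 reads. For Acadm, the processed pseudogene Gm5131 shares 5.98% of words and was assigned 34.3 and 86.7 reads. The unitary pseudogene Thap6 shares 23 words of Eci1, or 1.07%. It had 120 and 152 reads, with a posterior SD of 0 in both libraries. This overlap is not particular to Thap6. Genes that are not pseudogenes, such as Rack1 and Malat1, also share 23 words of Eci1, and Mdm2 shares 44. Over all other genes, pseudogenes or not, the shared words came to 23.3% for Hadhb, 8.22% for Echs1 and 5.98% for Acadm. Eci1 followed at 2.33%. Hadhb and Acadm were the 2 enzymes whose expected counts were not whole, and the other 8 had whole counts in both libraries.

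On short chains the hydratase and dehydrogenase steps fall to separate enzymes. Echs1, for the short-chain enoyl-CoA hydratase (ENSMUSG00000025465.13, chr7:140105710-140116476, minus strand), measured 45.6 TPM in replicate 1 and 72.2 in replicate 2. Its counts were 2349 and 3627, and the ratio was 1.59-fold (1.51 to 1.67). Hadh, for the hydroxyacyl-CoA dehydrogenase of shorter chains (ENSMUSG00000027984.8, chr3:131233419-131272101, minus strand), was at 54.0 and 87.0 TPM, with counts of 3174 and 5099 and a ratio of 1.65-fold (1.58 to 1.73). With Acads, these enzymes of short chains had the 3 lowest ratios of the 10. The counting intervals of Echs1 and Hadh overlap that of Acads, and the interval of Hadh also overlaps those of Acadvl, Hadha and Hadhb, so the order of the lower ratios is not settled. Hadh exceeded Echs1 1.18-fold and 1.21-fold in TPM of the first tables.

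The isomerases handle unsaturated fatty acids. Ech1, for a dienoyl-CoA isomerase (ENSMUSG00000053898.12, chr7:28825217-28832247, plus strand), measured 67.8 TPM in replicate 1 and 143 in replicate 2. With counts of 2535 and 5157 it had the largest ratio of the 10, 2.09-fold (1.99 to 2.19), and was the 1 enzyme at or above 2-fold. Eci1, for an enoyl-CoA isomerase (ENSMUSG00000024132.6, chr17:24426641-24439348, plus strand), was at 44.0 and 80.0 TPM, with counts of 1461 and 2639. Its ratio of 1.86-fold (1.74 to 1.98) lay below that of Ech1, and the intervals did not overlap. Ech1 exceeded Eci1 in both libraries, 1.54-fold and 1.79-fold in TPM of the first tables and 1.23-fold and 1.47-fold in the second.

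**Figure D2:**
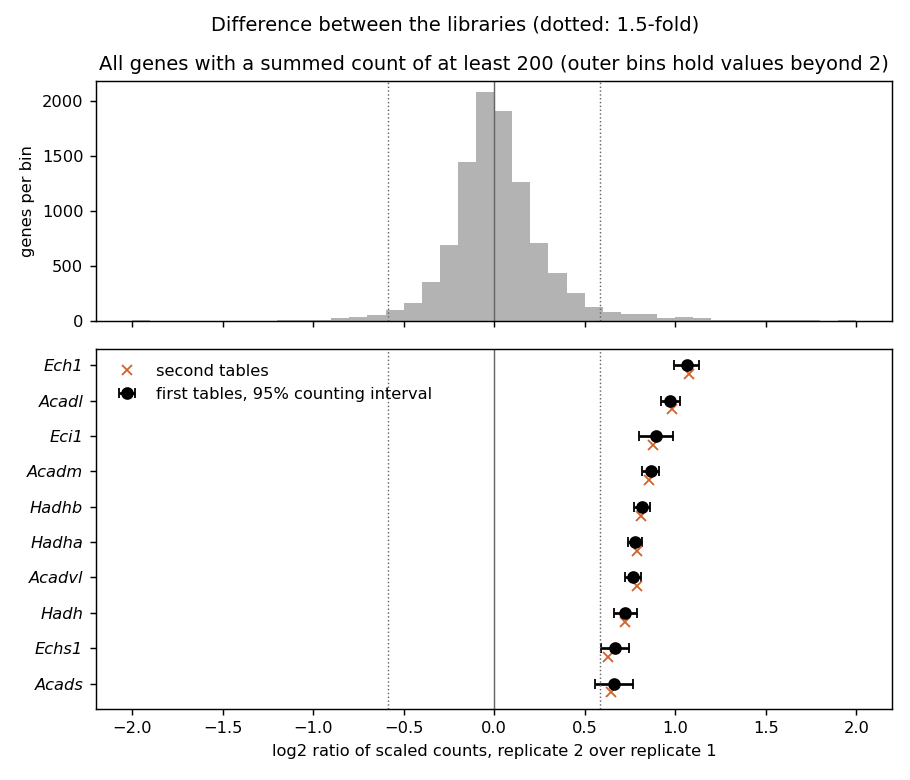
Log2 ratio of scaled counts, replicate 2 over replicate 1, as a histogram over the 10054 genes tested (top) and for each enzyme (bottom), with 95% counting intervals for the first tables and crosses for the second tables. Dotted lines mark 1.5-fold, and every enzyme's value lies to the right of the upper line, from 0.66 for Acads to 1.06 for Ech1.

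In descending order of mean TPM in the first tables the enzymes ran from Hadhb (176 ± 60.2) through Acadm (149 ± 51.9), Acadvl (139 ± 49.6), Hadha (136 ± 47.6), Acadl (107 ± 47.7), Ech1 (105 ± 53.1), Hadh (70.5 ± 23.3), Eci1 (62.0 ± 25.5) and Echs1 (58.9 ± 18.8) to Acads (24.8 ± 7.47; SD, n = 2 for each). Every neighbouring pair overlapped over the libraries except Echs1 and Acads. Within a library the order was steadier, since 2 neighbouring pairs exchanged places, Acadl with Ech1 and Eci1 with Echs1. Among 21951 protein-coding genes ordered by mean TPM, Hadhb stood at place 281 and Acads at 1884. In the second tables Hadhb (347 ± 110) was followed by Acadvl (263 ± 92.0), and Acads (36.2 ± 10.3) was again last. Over transcripts of at least 1000 nt in the first tables, Hadhb (129 ± 49.7 TPM) and Hadha (127 ± 44.6) led, and Acadm fell to the fifth place at 101 ± 41.0.

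The other enzymes differed in how far short, noncoding transcripts entered their levels. Acadvl-202, the coding transcript, held 85.1% and 84.4% of the TPM of Acadvl in the first tables and 55.8% and 51.3% in the second. There the retained-intron transcripts Acadvl-203 (538 nt) and Acadvl-205 (749 nt) held 23.0% and 22.6%, and 9.92% and 18.6%, against 12.1% and 13.1%, and 0.62% and 0.76%, in the first tables. Acadm went the other way. Its coding transcript Acadm-201 held 64.0% and 69.9% in the first tables and 78.5% and 87.7% in the second. The retained-intron transcripts Acadm-207 (323 nt), at 21.1% and 16.0%, and Acadm-210 (690 nt), at 11.4% and 11.6%, were at 0 in the second tables. The short coding transcript Acadm-205 (565 nt) held 0.29% and 0.07%, and 13.5% and 8.93%.

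For 4 enzymes a single coding transcript held at least 87.6% of TPM in every table. Hadh-201 held 98.9% and 99.3% in the first tables and 99.2% and 99.7% in the second, and Echs1-201 97.7% and 97.9%, and 95.8% and 98.5%. Acadl-201 held 100% and 98.8%, and 91.8% and 88.2%, with the rest on the noncoding Acadl-202 (649 nt), at 11.8% in replicate 2 of the second tables. Acads-201 held 100% and 99.1%, and 91.9% and 87.6%, and the noncoding Acads-204 (532 nt) was at 0% in the first tables and at 8.15% and 11.5% in the second.

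Both isomerases were divided among coding transcripts. Ech1-201 held 86.5% and 80.1% in the first tables and 97.8% and 90.0% in the second, and the shorter coding transcript Ech1-204 (673 nt) 8.93% and 16.8%, and 0% and 9.18%. Ech1-204 thus had the higher share in replicate 2 in both kinds of table. All 673 nt of Ech1-204 are also exonic in Ech1-201, so reads of the shared part can fall to either. In the first tables its posterior SD was 43.8 on 119 reads in replicate 1 and 58.2 on 474 in replicate 2. A difference in transcript use between the libraries is therefore not shown. For Eci1, Eci1-205 held 79.2% and 81.3%, and 54.8% and 55.1%. Eci1-201 and Eci1-204 held 0% and 2.58%, and 1.74% and 0.64%, in the first tables but 16.8% and 19.7%, and 21.1% and 23.8%, in the second, where the retained-intron transcript Eci1-207, at 7.98% and 10.7% in the first, was at 0.

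**Figure D3:**
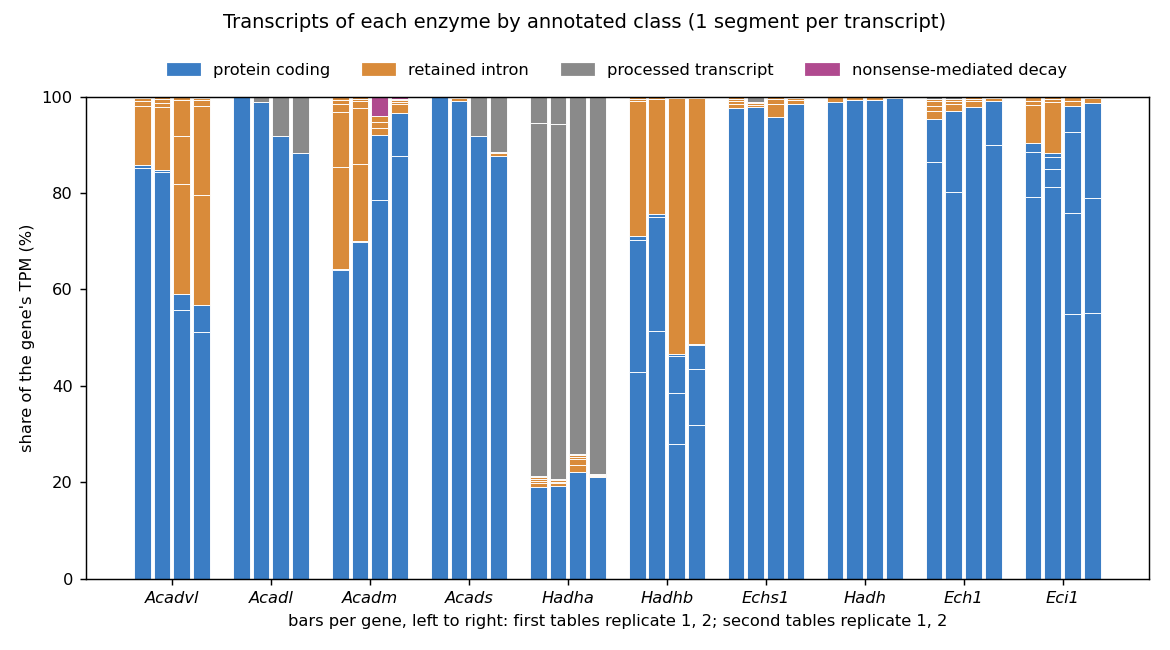
Share of each enzyme's TPM held by its transcripts, coloured by annotated class, with 4 bars per gene (first tables, replicates 1 and 2, then second tables, replicates 1 and 2). Coding transcripts fill most of every bar except those of Hadha, where Hadha-201 without a coding sequence holds 73.2% to 78.3%, and those of Hadhb in the second tables, where the retained-intron transcript Hadhb-208 holds 53.0% and 50.9%.

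Few reads were listed on genes that overlap the enzymes. Dvl2, on the opposite strand over 2119 nt of Acadvl, was at 1.95 and 1.60 TPM. Paox, opposite Echs1 over 678 nt, was at 1.43 TPM in both libraries, and Garem2, which overlaps the end of Hadha over 75 nt, was at 0 and 0.01. Gm15793, a processed pseudogene within Acadl, was at 0.77 and 0.34 TPM, and Mir324, Mir1960 and Gm27934 were at 0 in both. The strand setting of the counting was not found in the labels or headers used here, and reads of antisense pairs may be mixed.

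Of 20 genes listed as partners of these enzymes, 9 were at least 1.5-fold higher in replicate 2, beside 3.65% of all genes tested. The count in the other direction was 0, beside 1.71%. The median log2 ratio was 0.46, against 0.80 for the 10 enzymes. The electron transfer flavoprotein, which takes electrons from the acyl-CoA dehydrogenases, stood close to them, with Etfa at 85.0 and 142 TPM (log2 ratio 0.80) and Etfb at 86.6 and 143 TPM (0.73). Etfdh, which passes the electrons on to ubiquinone, had 0.89. Acaa2, the thiolase of the matrix, was at 60.9 and 134 TPM and had 1.23, above all 10 enzymes. The thioesterase Acot2 had 1.33, the dienoyl-CoA reductase Decr1 0.75, the thiolase Acat1 0.62, and Nudt7 and Nudt8, hydrolases of coenzyme A, 0.88 and 0.83. The enzyme of Nudt7 is peroxisomal, so the list is not strictly of the mitochondrion. It is broad in other ways too, and its median does not stand for the genes named above. Acadsb had 0.36, Acad8 0.24, Acad9 0.18, Acad11 0.43 and Hibch 0.21.

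The carnitine shuttle brings long acyl chains into the matrix. Of 11 genes tested for it and for fatty acid activation, 0 were at least 1.5-fold higher in replicate 1 (all genes 1.71%). In replicate 2 the count was 4 (all genes 3.65%), and the median log2 ratio was 0.42. These 4 were the acyl-CoA synthetase Acsl1 (88.0 and 155 TPM, log2 ratio 0.82), Cpt2 (0.77), the carnitine-acylcarnitine carrier Slc25a20 (0.76) and the carnitine transporter Slc22a5 (0.61). Cpt1b, the muscle form of the entry enzyme, was at 101 and 141 TPM with 0.43, and Crat, the carnitine acetyltransferase and the most abundant of the list, at 142 and 161 TPM with 0.23. Both lay below every one of the 10 enzymes.

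Of 13 peroxisomal genes tested (median 0.33) 2 were at least 1.5-fold higher in replicate 2 (all genes 3.65%) and 0 in replicate 1 (1.71%). These were Phyh, for the phytanoyl-CoA hydroxylase (70.2 and 113 TPM, 0.72), and Ehhadh, for the peroxisomal hydratase and dehydrogenase (0.80), while Scp2, at 56.8 ± 2.52 TPM, had 0.18. None of 4 genes that set malonyl-CoA, the inhibitor of carnitine entry, reached 1.5-fold, a count of 0 each way with a median of 0.28. Acacb, the carboxylase of muscle, had 0.13 and Mlycd, the decarboxylase, 0.56. Of 3 ketone enzymes tested 2 were higher in replicate 2, Oxct1 (104 and 222 TPM, 1.07) and Bdh1 (28.0 and 89.8 TPM, 1.67). Bdh1 lay above Ech1, the highest of the 10 enzymes, while the interval of Oxct1, 1.04 to 1.11, lay within that of Ech1, 1.00 to 1.13.

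Of 13 regulators tested (median 0.41) 5 were at least 1.5-fold higher in replicate 2 (all genes 3.65%) and 0 in replicate 1 (1.71%). The fatty acid receptor Ppara had a log2 ratio of 1.38 (6.03 and 15.3 TPM), the orphan receptors Esrrb 1.32 and Esrrg 1.09, and the coactivators Ppargc1b 1.19 and Ppargc1a 0.68 (13.5 and 22.0 TPM). The most abundant members did not reach 1.5-fold, with Rxra at 47.2 and 44.4 TPM (-0.10) and Esrra at 31.4 and 40.8 TPM (0.41).

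Fibre-type markers also differed between the libraries. All 12 slow-fibre markers were at least 1.5-fold higher in replicate 2, beside 3.65% of all genes tested. Their median log2 ratio, 1.34, lay above all 10 enzymes, with a summed TPM of 2639 in replicate 1 and 6017 in replicate 2. The most abundant were myoglobin, Mb (1212 and 2431 TPM, 1.06), and the slow light chain Myl2 (304 and 800 TPM, 1.44). Mb thus made up a large part of the sums, and whether all 12 genes are particular to slow fibres was not tested. The lowest ratio of the list was that of Myh7b, 0.69, below every enzyme except Acads and Echs1. Myh1 and Myh2, myosins of IIx and IIa fibres, had 0.94 and 1.01. The 8 genes of the fast IIb list were all lower in replicate 2 by less than 1.5-fold, with a median log2 ratio of -0.40. They summed to 57147 and 44737 TPM, led by Tnnt3 (14906 and 11890 TPM) and the IIb myosin Myh4 (11267 and 8431 TPM, -0.38). Tnnt3, Tnni2 and Atp2a1 (-0.29, -0.22 and -0.20) are genes of fast fibres in general, so the sums and median are not of IIb fibres alone. The 10 enzymes thus moved in the direction of slow and IIa or IIx markers, and the part of fibre type in their ratios was not tested.

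Markers of other tissues that burn fat ranged from 0 to levels near those of the enzymes. The brown-fat list summed to 101 and 143 TPM, nearly all of it Cpt1b, which muscle also makes, with Ucp1 and Elovl3 at 0 in both libraries and Cidea at 0.43 and 1.32 TPM. The 5 liver genes summed to 0 and 0.02 TPM. Of 7 heart genes Nppa, Nppb and Myl7 were at 0. Tnni3 was at 0.16 and 0.12 TPM, Ryr2 at 0.07 in both libraries, and Hcn4 at 0.60 and 0.53. Myh6, a heart myosin, was at 42.6 and 105 TPM in the first tables with a log2 ratio of 1.36, a level near that of Eci1 and Echs1. In the second tables Myh6 was at 22.5 and 57.1 TPM, below Eci1 (79.2 and 136) and Echs1 (69.4 and 103). The part of these markers in the ratios of the enzymes was not tested. The adipocyte list came to sums of 200 TPM and 199 TPM, nearly all of it Slc2a4, the glucose carrier that muscle also makes, with Cfd at 5.06 and 2.74 TPM. Endothelial genes, led by Ly6c1 and Egfl7, summed to 123 and 125 TPM. Of the 7, 1 was at least 1.5-fold higher in replicate 2, too few genes to set against the 3.65% of all genes tested. Macrophage genes, led by Lyz2 and C1qb, summed to 23.4 and 20.1 TPM, and erythroid genes, led by Hbb-bs and Hba-a1, to 237 and 216. Fibro-adipogenic genes, led by Dcn and Col1a1, summed to 212 and 199 TPM. Of these 6 genes 3 were at least 1.5-fold higher in replicate 1 (all genes 1.71%) and 0 in replicate 2 (3.65%). Col1a1, at 60.6 and 88.0 TPM, was higher in replicate 2 with a log2 ratio of 0.58.

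**Figure D4:**
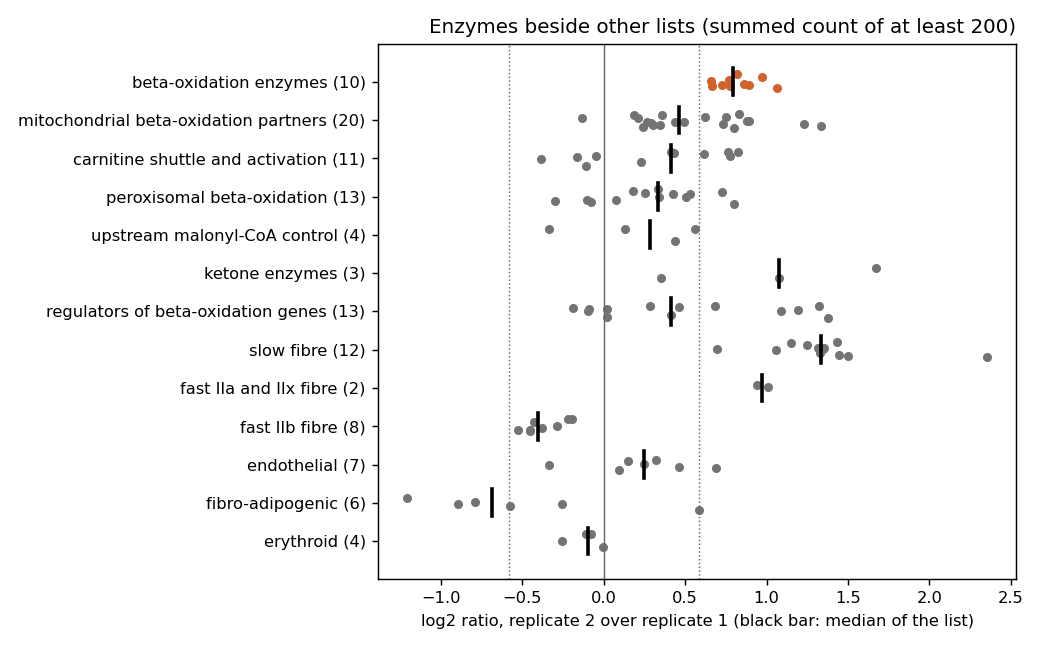
Log2 ratio, replicate 2 over replicate 1, of each gene tested (points) in the enzyme set and in lists of partners, regulators and fibre and cell markers, with the median of each list as a black bar and the number of genes in brackets. The 10 enzymes form a narrow cluster at a median of 0.80, between the medians of the partner list, 0.46, and the slow-fibre markers, 1.34. The partner list is mixed, and its genes range from -0.13 to 1.33.

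The genes nearest to the enzymes in level and ratio were named from the plane of mean log2(TPM + 1) and log2 ratio, by distance to the median point of the 10 (6.66 and 0.80), over 2 libraries. They were Etfa (distance 0.14), Etfb (0.17), Phyh (0.18), the small heat shock gene Hspb7 (0.19) and Acsl1 (0.23). Hspb7 was the 1 gene among them from outside the lists of fat oxidation, at 87.4 and 148 TPM with a log2 ratio of 0.80.

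The promoters of enzymes that moved together were compared by short motifs. RefSeq promoter windows of 300 bases, 250 before the start and 50 from it on (GRCm38.p6), were found for all 10. GGGCGG, the GC box, was searched on both strands and occurred in 8 of the 10 windows, against 35.7% of all 32851 windows and 63.8% of the 9927 windows of genes tested. The windows of Hadha and Hadhb overlap, so these are not separate cases. The exceptions were Acadvl and Acadm. The median GC content of the 10 windows was 61.8%, against 61.3% for those of genes tested, and the median ratio of observed to predicted CpG was 0.63 against 0.77.

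AGGTCA, the half-site that nuclear receptors such as PPAR and ERR read, occurred in 3 windows, those of Acadvl, Acadm and Echs1, against 16.3% of all windows and 12.3% of those of genes tested. It lay 87 bases before the start of Acadvl, 83 before that of Echs1 and 249 before that of Acadm, there on the opposite strand. AAGGTCA, which contains AGGTCA, occurred in 1 window, that of Acadm, against 4.72% of all windows and 3.07% of those of genes tested. TCAAGGTCA, the longer ERR element, occurred in 0, against 0.423% and 0.212%. AGGTCA repeated with 1 base between occurred in 0 of the 10, against 0.0396% and 0.0302%. These letters may lie outside the windows, which were not searched further.

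GCGCATGC, the NRF1 core, occurred in the window of Acadm, 158 bases before the start on the opposite strand, against 2.71% of all windows and 5.46% of those of genes tested. CCAAT occurred in 1 window, that of Hadh, against 37.4% and 37.2%. CCGGAAG, an ETS site, occurred in 0 against 8.86% and 18.3%, and TATAAA in 0 against 13.6% and 7.15%. The windows of Acadl, Hadhb and Hadh each held 4 GC boxes, all of them before the start in Acadl and 2 in each of Hadhb and Hadh. Acadl and the 2 enzymes without any are shown because they have the most and the fewest before the start. The sequences are Acadl at chr1:66863310-66863409, Acadvl at chr11:70015429-70015528 and Acadm at chr3:153944644-153944893, each on the minus strand and ending at the base before the RefSeq start. Capitals mark these motifs on either strand: the GC box GGGCGG or its reverse complement CCGCCC, the half-site AGGTCA or its reverse complement TGACCT, and the NRF1 core or its reverse complement.

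Acadl: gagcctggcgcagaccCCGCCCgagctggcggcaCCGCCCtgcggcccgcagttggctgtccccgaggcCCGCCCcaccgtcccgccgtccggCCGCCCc

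Acadvl: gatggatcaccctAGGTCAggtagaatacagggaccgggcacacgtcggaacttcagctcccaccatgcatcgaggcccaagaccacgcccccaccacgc

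Acadm: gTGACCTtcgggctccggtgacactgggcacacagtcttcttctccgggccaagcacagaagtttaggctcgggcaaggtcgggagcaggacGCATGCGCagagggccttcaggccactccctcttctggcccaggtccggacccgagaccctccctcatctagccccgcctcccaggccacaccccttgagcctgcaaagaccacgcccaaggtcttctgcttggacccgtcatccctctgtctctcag

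In Acadl the 4 GC boxes stand 84, 66, 31 and 7 bases before the start, all on the opposite strand. Acadvl had the lowest GC content of the 10, at 50.7%, and Acadl the highest, at 70.3%. The ratios of these genes, 1.70-fold for Acadvl, 1.82-fold for Acadm and 1.96-fold for Acadl, lay within the band of the other enzymes, and a match of letters describes the window and shows no binding.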

How the data were processed

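Total RNA of 2 gastrocnemius libraries was analysed from deposited tables. Per the file headers, the authors deposited expected counts, TPM, the posterior mean and SD of each count (the SD was read as a score) and the percent of a gene's TPM per transcript, in the layout of RSEM (first tables). They also deposited estimated counts and TPM in the layout of kallisto (second tables). The deposited notes give mm10 and GENCODE release M21. The programs were not found in the labels or headers used here. Reads were assigned to 1 reference and the alleles of the hybrid were not separated.

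Counts were rounded for scaling with TMM factors (edgeR 4.0.16, R 4.3.3), from genes whose counts summed to 200 or more, and 0.5 was added before log2. A gene counted as higher at 1.5-fold. The calculation was tested on simulated data. With 1 library on each side no p-value was computed. Intervals are exact Clopper-Pearson intervals at 95% and allow for counting error alone, as reads are not separate molecules. DESeq2 1.42.0 size factors, total counts and spike-ins were alternative scalings. Sequence sharing was counted in 31-base words of GENCODE transcripts.

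The 10 enzymes, the gene lists and the naming rule were chosen with earlier results of these data known. Named were the enzymes, transcripts with at least 10% of TPM, the 2 most abundant genes of each list, genes of the pathway lists (not the marker lists) past 1.5-fold, the 5 nearest genes, overlapping genes and pseudogenes.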

Additional observations from a re-analysis of the deposited data

How the results depend on the processing

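The 10 enzymes were at least 1.5-fold higher in replicate 2 with DESeq2 size factors, total counts, spike-in scaling, the posterior mean count and the second tables. At a fold of 2 with the main scaling the count was 1, Ech1. With spike-in scaling Acadl also passed 2-fold, at a log2 ratio of 1.03. Their median log2 ratio was 0.77 to 0.80 under these and both other filters, except 0.86 with spike-in scaling, which moved the median of all genes from 0.0016 to 0.062. Of 70 single-enzyme ratios under 7 alternatives, 70 were positive and at least 1.5-fold, between 0.63 and 1.12, and 65 lay within the counting interval. These are not 70 separate checks. Each scaling or filter shifts the log2 ratios of all 10 enzymes by the same amount, and the other alternatives quantify the same reads. With a summed count of at least 20, 6.51% of all genes were 1.5-fold higher in replicate 2 and 6.04% in replicate 1 (964 and 895 genes), and with no filter 16.9% and 17.9% (3943 and 4156), so the split of all genes moved with the filter. The mean summed TPM was 1617 in the second tables and 2606 with nuclear protein-coding genes alone as the denominator, and ranged from 756 to 1301 without one library or the other. The log2 ratio of Hadha over Hadhb was -0.93 in the second tables, -0.020 over transcripts of at least 1000 nt in the first tables and 0.12, reversed, over such transcripts in the second, both chosen after seeing the data, and -0.38 to -0.37 without one library or the other. Each enzyme had a count of at least 1190 in each library, and the widest counting interval relative to its ratio was that of Acads. No paired analysis was possible because the study has 1 group.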
